A study of Homo sapiens with 9 samples.

Results

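The MHC class I and peptide loading genes described here are 9 genes of the 23727 in the count table, chosen by name: the heavy chains HLA-B, HLA-C, HLA-E and HLA-F, the light chain B2M, the peptide transporter subunits TAP1 and TAP2, the chaperone TAPBP and the aminopeptidase ERAP1. They were followed in the human glioblastoma line LN229, a single established line, by stranded mRNA sequencing; the growth protocol gives this name, while the source label reads LN299. Each of 3 groups held 3 libraries: untreated cells at 0 h, cells given 500 µM sodium formate for 8 h, and cells given the same dose for 24 h. All groups grew in DMEM with glucose, glutamine and fetal bovine serum, and formate, the anion of formic acid, is a one-carbon unit of folate metabolism. No untreated library of 8 h or 24 h was analysed here, so formate and time in culture cannot be told apart. All 9 members were found in the table and all 9 passed the filter on low counts.

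MHC class I molecules show fragments of a cell's own proteins to CD8 T cells and to natural killer cells. The proteasome cuts proteins into peptides, the TAP transporter carries them into the endoplasmic reticulum, ERAP aminopeptidases trim them, and tapasin holds the empty heavy chain and its light chain at the transporter until a peptide binds. In many tumours, glioblastoma among them, the level of this machinery bears on whether T cells can see the cell. Interferons raise most of these genes through response elements upstream of them, and the activator NLRC5 acts on the class I promoters together with the RFX and NF-Y factors.

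The promoters of HLA-B, HLA-C and B2M are shown for the elements they share, and those of TAP2 and ERAP1 because these members were called in one of the fits described further on. RefSeq windows on GRCh38.p14 were matched by symbol for 8 of the 9 members (10 windows, since TAP1 and ERAP1 have more than 1 start); HLA-E was not matched. The bases below are read 5′ to 3′ on the strand of the gene, in the 250 bases before the RefSeq start, and stop before the start of the GENCODE gene where that lies further upstream. Capitals mark matches on either strand to GAANNGAAA, or the same with GAAA in place of its first GAA (both forms of the interferon-stimulated response element, which can overlap each other), the NF-kB consensus, TGACG (the core of a cyclic AMP response element) and CCAAT (the NF-Y box).
HLA-B, chr6:31357189-31357429, minus strand: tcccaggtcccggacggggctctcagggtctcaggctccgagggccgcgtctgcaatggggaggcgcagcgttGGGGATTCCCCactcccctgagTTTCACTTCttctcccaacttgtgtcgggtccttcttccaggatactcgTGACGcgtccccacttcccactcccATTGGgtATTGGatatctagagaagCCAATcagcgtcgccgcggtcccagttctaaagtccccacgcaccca
HLA-C, chr6:31272131-31272342, minus strand: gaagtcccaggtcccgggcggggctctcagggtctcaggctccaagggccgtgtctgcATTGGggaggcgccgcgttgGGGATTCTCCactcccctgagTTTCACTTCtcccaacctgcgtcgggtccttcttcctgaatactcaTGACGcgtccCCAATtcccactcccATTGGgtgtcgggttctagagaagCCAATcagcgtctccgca
B2M, chr15:44711267-44711486, plus strand: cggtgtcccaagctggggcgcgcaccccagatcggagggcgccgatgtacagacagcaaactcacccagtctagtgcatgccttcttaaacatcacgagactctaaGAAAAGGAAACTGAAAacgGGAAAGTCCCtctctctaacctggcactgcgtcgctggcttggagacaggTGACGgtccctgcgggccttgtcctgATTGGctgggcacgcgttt
TAP2, chr6:32838781-32838989, minus strand: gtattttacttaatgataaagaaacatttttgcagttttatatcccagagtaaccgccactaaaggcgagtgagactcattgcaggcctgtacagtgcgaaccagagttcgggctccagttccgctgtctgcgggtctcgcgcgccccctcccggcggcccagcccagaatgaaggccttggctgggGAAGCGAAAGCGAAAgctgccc
ERAP1, chr5:96808101-96808195, minus strand: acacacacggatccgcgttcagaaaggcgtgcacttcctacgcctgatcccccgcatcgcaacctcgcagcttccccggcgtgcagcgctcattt

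HLA-B, HLA-C and B2M each held all 4 kinds of match, which 7 of the 35116 RefSeq windows of the same length held in all (0.0199%); the kinds were chosen with class I promoters in mind. In HLA-B the NF-kB match began at -177 from the RefSeq start and the response element lay from -155 to -147, and in HLA-C they lay at -172 and from -151 to -143. A response element of either form was in at least 1 window of all 8 matched members and in 9.08% of all windows. Members are counted here over all their windows but the shares over single windows, and TAP1 and ERAP1 have more than 1. The other TAP1 window held none of the 4 kinds. The NF-kB consensus was found for 6 of the 8 members and in 9.96% of windows, TGACG for 4 members and in 21.2%, and CCAAT for 6 members and in 32.0%. The 250 bases before the ERAP1 start held no response element, and their NF-kB and CCAAT matches lay outside the stretch printed; a second ERAP1 start carried 1 at -180. The TAP2 match to the longer form lay from -58 to -49. In TAP1 and TAPBP, whose windows lie inside the GENCODE gene and are not printed, response elements ran from -134 to -119 and from -20 to -5. A match describes letters only.

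In GENCODE 29 on GRCh38, 7 of the 9 genes lie in the MHC region of chromosome 6. From the telomeric end these are HLA-F (chr6:29722775-29738528, plus strand), HLA-E (chr6:30489467-30494205, plus), HLA-C (chr6:31268749-31272130, minus) and HLA-B (chr6:31269491-31357188, minus), followed by TAP2 (chr6:32821833-32838780, minus), TAP1 (chr6:32845209-32853978, minus) and TAPBP (chr6:33299694-33314387, minus). ERAP1 (chr5:96760810-96808100, minus) and B2M (chr15:44711487-44718877, plus) lie elsewhere. All 9 are annotated as protein coding, and the values are counts over each whole gene.

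Of the whole series, total counts lay between 22222298 and 25848242 per library, and 15273 genes were tested. On the first principal component (70.7% of the variance) replicate 1 lay apart from replicates 2 and 3 both at 0 h (-23.5 against -2.26 and -0.80) and at 8 h (-21.6 against -3.08 and -3.41), so the results below are also given without those libraries where they rest on them. VIM, NES, CD44, EGFR and SOX2, genes of glioblastoma lines, were at 67.2 CPM (counts scaled to the library size) or more in all 9 libraries, GFAP was at 0.425 CPM or less, and CDKN2A, which this line is known to have lost, had a count in 1 library only. Summed leukocyte markers (PTPRC, CD14 and LYZ), which would come with cells rich in class I, were at 0.539 to 1.02 CPM at 0 h, 0.919 to 1.18 at 8 h and 0.93 to 1.12 at 24 h. Summed endothelial markers (PECAM1 and VWF) were at 0.308 to 0.613 CPM at 0 h, 0.318 to 0.656 at 8 h and 1.04 to 1.7 at 24 h, of which PECAM1 was at most 0.133; their part in the results was not tested. In bulk RNA, fewer cells with a transcript and less of it per cell cannot be told apart.

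In untreated cells the light chain was the most abundant of these transcripts per length. Levels between genes are compared as CPM per kb of the principal GENCODE transcript, with the SD over 3 libraries. B2M stood at 269 ± 17.9 CPM per kb. TAPBP followed at 80.7 ± 3.01, and then came HLA-E at 72.2 ± 5.22, HLA-C at 66.6 ± 6.64 and HLA-B at 64.9 ± 5.31, whose ranges overlapped. TAP1, at 21.8 ± 2.01, lay above ERAP1 at 13.4 ± 2.53 and TAP2 at 11.2 ± 2.80, which overlapped with each other. HLA-F, a non-classical heavy chain, was the lowest at 5.51 ± 0.291. With the length of all merged exons the order changed: B2M was at 75.3 and HLA-E at 63.1, while TAPBP, at 30.1, came below HLA-C at 40.8 and HLA-B at 32.9.

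The class II genes of the same region were also transcribed in untreated LN229. HLA-DRA, a chain of the class II dimer, was at 636 ± 49.2 CPM per kb and HLA-DPA1 at 187 (180 to 193), against 64.9 to 72.2 for HLA-B, HLA-C and HLA-E. HLA-DMB, at 16.3, and CIITA, at 8.34, were below these heavy chains. With merged exons HLA-DRA stayed at 636, but HLA-DPA1 was at 55.6, below HLA-E at 63.1. The whole class II list (CIITA, its master regulator, with HLA-DRA, CD74, HLA-DMA, HLA-DMB and HLA-DPA1) passed the filter on low counts. These genes are named here for their level, after their values were seen.

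**Figure D1:**
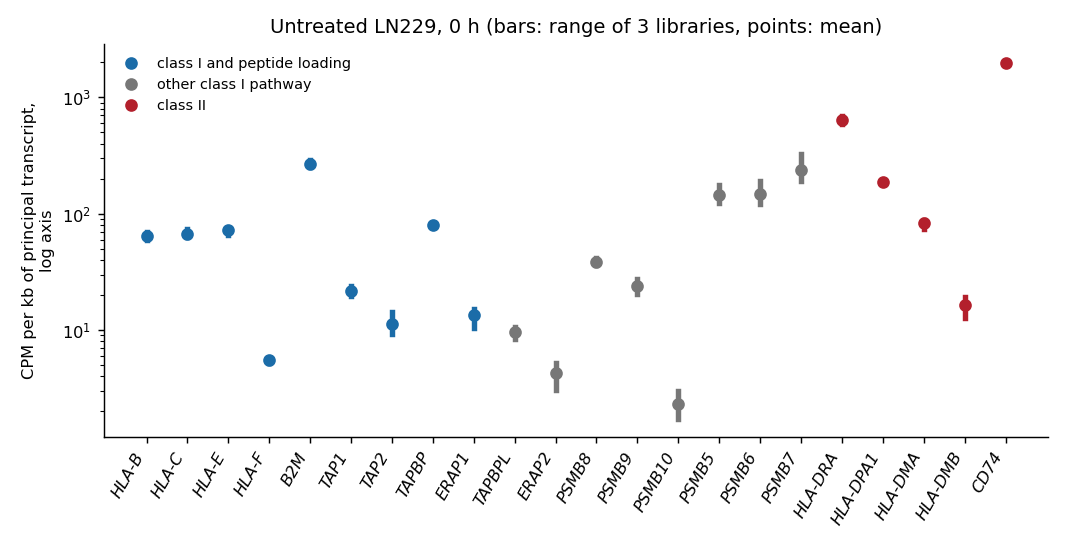
Levels in the 3 untreated libraries as CPM per kb of principal transcript on a log axis, with points for the mean and bars for the range. B2M is the highest of the class I genes at 269, HLA-F the lowest at 5.51, and HLA-DRA lies at 636.

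After 8 h of formate no change of a member was detected. HLA-C was at 114, 96.1 and 96.6 CPM at 0 h in replicates 1, 2 and 3, and at 94.2, 97.6 and 99.9 at 8 h. B2M was at 492, 449 and 433 CPM at 0 h and at 417, 440 and 443 at 8 h. In both genes the groups overlapped, and the highest value at 0 h was that of replicate 1. By edgeR (quasi-likelihood test, p-values adjusted over all tested genes), 0 of the 9 members were called (adjusted p under 0.05), against 0% of all tested genes, and 0 members had an unadjusted p under 0.05, against 0.517% of genes. DESeq2 and the fit with the replicate number as a block also called 0. No member had groups that did not overlap, against 3.31% of all genes. Fitted log2 fold changes ran from -0.11 for TAP2 to 0.10 for ERAP1, with a median of -0.06 against -0.02 over all genes, and 2 members were above 0, against 43.3% of genes. The 95% intervals of HLA-B, HLA-C, HLA-E, B2M, TAP1 and TAPBP lay within 0.803-fold and 1.16-fold, and those of HLA-F and TAP2 reached from 0.739 and 0.704 to 1.22. That of ERAP1 ran from 0.873 to 1.31.

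At 24 h no change of a heavy or light chain was detected against 0 h. HLA-B, a classical heavy chain that presents peptides to T cells, was at 107, 91.2 and 103 CPM at 0 h, at 93.3, 93.5 and 104 at 8 h and at 98.6, 93.3 and 113 at 24 h. The groups overlapped, and replicate 2 was the lowest library at 0 h and at 24 h. The fitted log2 fold change at 24 h against 0 h was 0.02 with a standard error of 0.11 (95% interval -0.21 to 0.25, edgeR adjusted p 0.919). HLA-C, the classical chain that is also a main ligand of killer-cell receptors, was at 99.9, 96.7 and 113 CPM at 24 h, with a log2 fold change of 0.01 (-0.21 to 0.23, adjusted p 0.946). Reads of the heavy chains can be shared among these similar and polymorphic genes, so the split between HLA-B and HLA-C is uncertain; the ratio of their counts lay between 0.938 and 1.06 in all 9 libraries.

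HLA-E, which presents leader peptides of other class I chains to natural killer cells, was at 196, 195 and 172 CPM at 0 h, at 174, 193 and 178 at 8 h and at 187, 173 and 162 at 24 h. The 24 h libraries lay within or just below the range of 0 h, with a log2 fold change of -0.11 (95% interval -0.33 to 0.11, edgeR adjusted p 0.500). HLA-F was at 8.49, 9.13 and 9.42 CPM at 0 h, at 6.40, 9.19 and 10.1 at 8 h and at 9.60, 10.6 and 10.4 at 24 h. Its 24 h libraries lay above those of 0 h without overlap, but the log2 fold change of 0.18 had an interval from -0.18 to 0.54 and an adjusted p of 0.501. Genes on the opposite strand overlap 28.5% of the exons of HLA-F and 17.8% of those of HLA-B. B2M, the light chain that pairs with class I heavy chains, was at 423, 430 and 503 CPM at 24 h, with a log2 fold change of -0.02 (-0.25 to 0.22, edgeR adjusted p 0.927). The highest of all 9 values was that of replicate 3 at 24 h and the lowest that of replicate 1 at 8 h.

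Summed over the 4 heavy chains, the level was 399 ± 23.4 CPM at 0 h, 384 ± 14.3 at 8 h and 389 ± 13.4 at 24 h (SD, n = 3 libraries). The ratio of that sum to B2M was between 0.865 and 0.895 in the 6 libraries of 0 h and 8 h, and spread from 0.790 to 0.934 at 24 h. Over the 9 libraries the coefficient of variation was 7.56% for HLA-B, 7.29% for HLA-C, 6.71% for HLA-E, 13.6% for HLA-F and 6.70% for B2M, against a median of 15.9% over all tested genes. It was 6.93% for TAP1, 9.09% for TAPBP and 13.8% for ERAP1, and 23.3% for TAP2, the only member above that median. The median covers genes of all levels, and no comparison with genes of like level was made. By level at 0 h, HLA-B, HLA-C, HLA-E and B2M lay at percentiles 83.9 to 98 of tested genes, and HLA-F at 35.2.

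**Figure D2:**
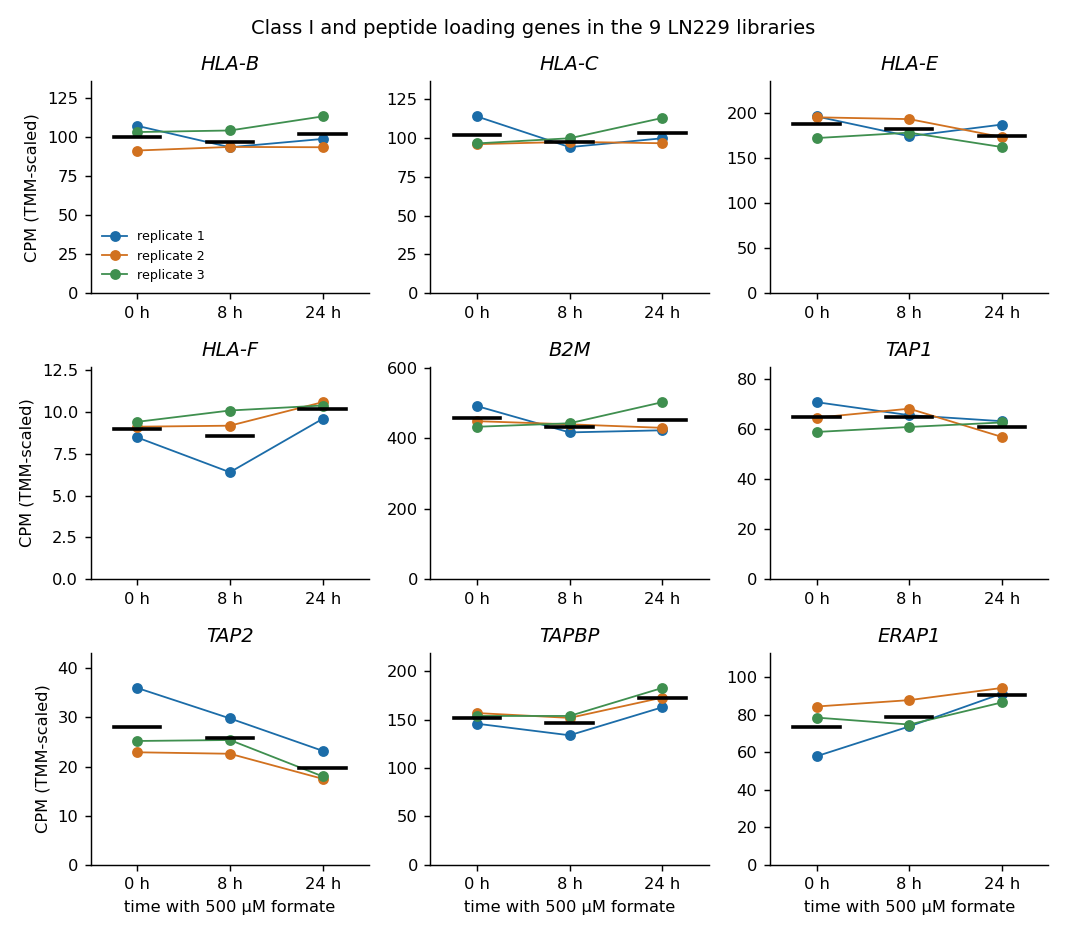
CPM of the 9 members at 0, 8 and 24 h, with a line for each replicate number and a black bar for the mean of 3 libraries; each vertical axis starts at 0. HLA-B, HLA-C and B2M overlap between groups. Every replicate of TAP2 and HLA-E is lower at 24 h than at 0 h, and every replicate of HLA-F, TAPBP and ERAP1 is higher.

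TAP1 overlapped between the groups, while TAP2 was lower at 24 h in every replicate number. TAP1 was at 70.6, 64.4 and 58.7 CPM at 0 h, at 65.4, 68.0 and 60.7 at 8 h and at 63.0, 56.7 and 62.5 at 24 h. The lowest value was that of replicate 2 at 24 h, and the log2 fold change at 24 h was -0.09 (95% interval -0.31 to 0.13, edgeR adjusted p 0.583). TAP2, whose product pairs with that of TAP1 to form the peptide pump, was at 36.0, 22.9 and 25.2 CPM at 0 h, at 29.8, 22.6 and 25.4 at 8 h and at 23.2, 17.5 and 18.0 at 24 h. Every replicate number had its lowest value at 24 h, and replicate 1 was the highest at each time, so that its 24 h value lay among those of 0 h. The change within replicates 1, 2 and 3 was -0.63, -0.39 and -0.48 on the log2 scale.

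For TAP2 the call depended on whether the replicate number was in the model. Without it, the log2 fold change at 24 h against 0 h was -0.52 with a standard error of 0.18 (edgeR adjusted p 0.114). With the replicate number as a block it fell by 0.51 (95% interval -0.71 to -0.30, 0.705-fold, adjusted p 0.00313), and the call held when each of the 9 libraries was left out in turn (adjusted p 0.00251 to 0.0178). Without the block and without replicate 1 at 0 h and 8 h, the value was -0.30 (adjusted p 0.223). The ratio of TAP1 to TAP2 counts was 1.96, 2.81 and 2.33 at 0 h and 2.71, 3.24 and 3.46 at 24 h, a difference of 0.42 on the log2 scale (two-sided exact permutation test p = 0.2, adjusted 0.24 over 6 ratios; 0.1 is the smallest p that 3 against 3 libraries allow). An annotated gene on the same strand overlaps 32.3% of the exons of TAP2, and genes on the opposite strand overlap 9.49% of those of TAP1.

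TAPBP encodes tapasin, which links empty class I molecules to the transporter and edits their peptides. It was at 146, 157 and 154 CPM at 0 h, at 134, 152 and 154 at 8 h and at 163, 173 and 183 at 24 h. The 24 h libraries lay above all 6 others, and the change from 0 h within replicates was 0.16, 0.15 and 0.24 on the log2 scale. The fitted log2 fold change was 0.18 with a standard error of 0.09 (edgeR adjusted p 0.236; 0.0961 with the block), so the difference was not called against 0 h.

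ERAP1 trims peptides in the endoplasmic reticulum to the length that class I molecules hold. It was at 57.8, 84.3 and 78.4 CPM at 0 h, at 73.7, 87.7 and 74.7 at 8 h and at 91.2, 94.2 and 86.5 at 24 h. The 24 h libraries lay above those of 0 h, and the lowest library was replicate 1 at 0 h. The log2 fold change was 0.30 with a standard error of 0.13 (edgeR adjusted p 0.181). With the replicate block it rose by 0.32 (95% interval 0.09 to 0.54, 1.24-fold, adjusted p 0.0474), a call that remained in 1 of the 9 fits that left out a library, the one without replicate 3 of 0 h (adjusted p 0.024). Without untreated replicate 1 the value with the block was 0.16 (adjusted p 0.122), and without replicate 1 of 24 h it was 0.21 (adjusted p 0.218). Without the block and without replicate 1 at 0 h and 8 h it was 0.16 (adjusted p 0.351). Genes on the opposite strand overlap 6.94% of its exons.

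Counted together at 24 h against 0 h, 0 of the 9 members were called without the block, against 4.25% of all tested genes, and 2 had an unadjusted p under 0.05 (TAP2 and ERAP1), against 26.4%; DESeq2 called 0, with 1 at an unadjusted p under 0.05. With the block 2 were called, against 24.1% of all genes, TAP2 lower (11.6% of genes were called lower) and ERAP1 higher (12.6%). HLA-F, TAPBP and ERAP1 had groups that did not overlap, against 30.3% of all genes, and all 3 were higher, against 15.9%. In total these shares are near the background. The median log2 fold change of the members was 0.01, the same as that of all genes, and 5 were above 0 and 4 below, where 50.9% of genes were above 0.

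Between 8 h and 24 h, 0 members were called by edgeR without the block, against 4.56% of all genes. In that fit TAP2 and TAPBP had an unadjusted p under 0.05 (22.8% of genes), and DESeq2 called 0 with 2 at that level. TAP2 had a log2 fold change of -0.40 (standard error 0.18, adjusted p 0.213) and TAPBP of 0.24 (0.09, adjusted p 0.160). TAPBP was the only member whose libraries did not overlap between 8 h and 24 h, against 34.3% of all genes and 18.2% not overlapping and higher. Of the 9, 6 were above 0, against 52.1% of genes. This comparison and that of 24 h with 0 h share the 24 h libraries. With the block TAP2 and TAPBP were called between 8 h and 24 h, among 3130 genes in all. The replicate numbers do not pair all libraries of these times, so those values are given with the processing.

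**Figure D3:**
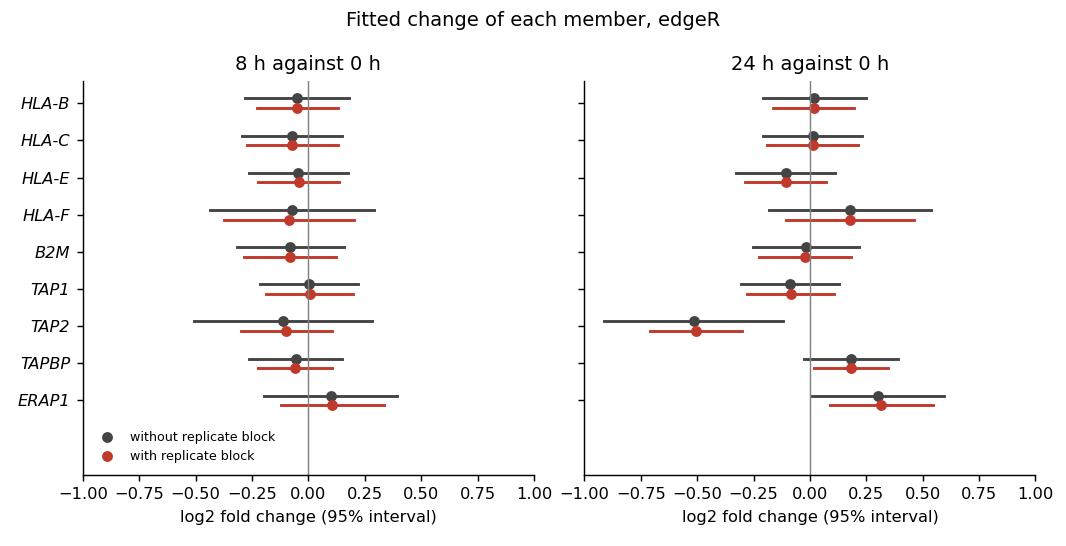
Fitted log2 fold change of each member with its 95% interval at 8 h and at 24 h against 0 h, in grey without and in red with the replicate number as a block. At 8 h every interval includes 0; at 24 h those of TAP2 and ERAP1 exclude 0 in both fits, and that of TAPBP with the block, before adjustment over genes.

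The other genes of the class I pathway were read from a list of 38, all of which were tested. At 24 h against 0 h, 24 were above 0 and 14 below, with a median log2 fold change of 0.02 against 0.01 over all genes. Without the block 0 were called by edgeR, against 4.25% of all genes, and 8 had an unadjusted p under 0.05, against 26.4%. DESeq2 called 4 of the 38, and 1656 of the 15273 tested genes in all. With the block 3 were called higher and 3 lower, against 24.1% of all genes, so the list held no larger share of calls than all genes did. The 3 that fell with the block were the standard catalytic subunits of the proteasome, which makes most class I peptides. PSMB7 was at 317, 197 and 187 CPM at 0 h and at 174, 138 and 140 at 24 h, and with the block it fell by 0.60 on the log2 scale (edgeR adjusted p 0.00175; 0.0813 without). PSMB6 fell by 0.58 with the block (adjusted p 0.00265; 0.0606 without) and PSMB5 by 0.42 (0.00671; 0.0862 without). In all 3 the groups did not overlap, as in 30.3% of all genes (in the list, 4 higher and 3 lower of 38), and the highest library was replicate 1 at 0 h. Without the block and without replicate 1 of 0 h and 8 h, PSMB7 was at -0.35, PSMB6 at -0.37 and PSMB5 at -0.26 (edgeR adjusted p 0.0833, 0.0762 and 0.121), and with the block but without untreated replicate 1 they were at -0.48, -0.47 and -0.34 (0.000146, 0.000632 and 0.0023).

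The immunoproteasome subunits, which replace those standard ones after interferon and favour peptides that fit class I, did not pass the threshold. PSMB8 was at 47.1, 43.6 and 40.3 CPM at 0 h and at 47.5, 42.1 and 45.4 at 24 h, a log2 fold change of 0.04 (edgeR adjusted p 0.801; genes on the opposite strand overlap 20.6% of its exons). PSMB9, which starts beside TAP1 on the opposite strand, was at 18.9, 21.3 and 15.9 CPM at 0 h and at 22.1, 21.4 and 25.4 at 24 h (0.29, adjusted p 0.262). Its groups did not overlap, by 21.3 against 21.4 CPM at the nearest libraries. PSMB10 was at 3.68, 2.7 and 2.08 CPM at 0 h and at 3.38, 2.42 and 2.28 at 24 h (-0.06, adjusted p 0.891), and 34.8% of its exons overlap a gene on the same strand. Each immunoproteasome subunit was set against the standard one it replaces. The ratio of PSMB8 to PSMB5 was 0.207, 0.255 and 0.250 at 0 h and 0.311, 0.328 and 0.335 at 24 h. PSMB9 to PSMB6 went from 0.116, 0.189 and 0.156 to 0.228, 0.281 and 0.330, and PSMB10 to PSMB7 from 0.0116, 0.0137 and 0.0111 to 0.0194, 0.0176 and 0.0162. All 3 ratios were higher at 24 h in every library, by 0.46, 0.88 and 0.55 on the log2 scale, each with the smallest p the design allows (two-sided exact permutation test p = 0.1, adjusted 0.2 over 6 ratios). For PSMB8 and PSMB10, whose own log2 fold changes were 0.04 and -0.06, the ratio mostly restates the lower values of PSMB5 and PSMB7. How often ratios of other genes separate the groups in this way was not computed.

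**Figure D4:**
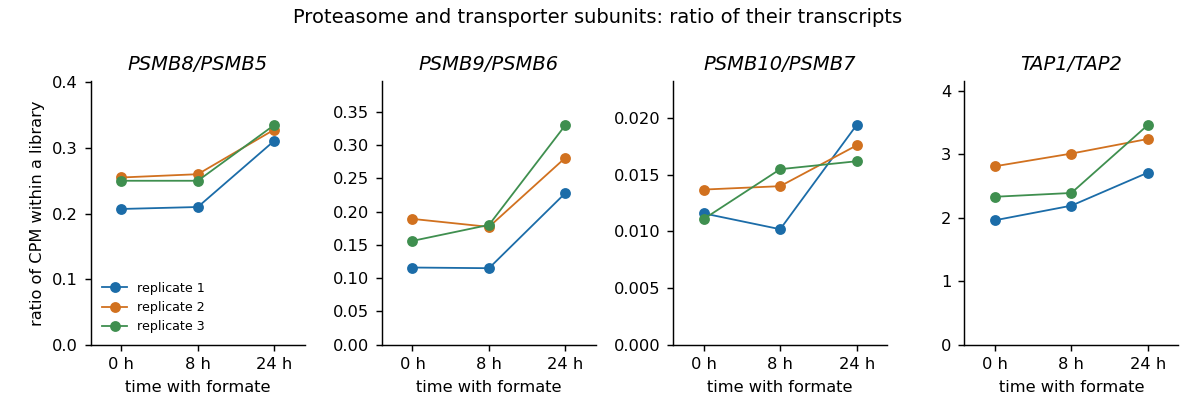
Ratio of CPM within each library for the immunoproteasome over the standard proteasome subunit it replaces and for TAP1 over TAP2, with a line per replicate number. The 3 proteasome ratios at 24 h lie above every library of 0 h; TAP1 over TAP2 rises in each replicate while its groups overlap.

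Of the genes called higher with the block, ERAP2, the second trimming enzyme of the endoplasmic reticulum, was at 17.4, 29.7 and 26.2 CPM at 0 h and at 31.1, 35.9 and 36.1 at 24 h. It rose by 0.52 on the log2 scale with the block (edgeR adjusted p 0.00583, and 0.129 without). ERAP1 and ERAP2 both lay higher at 24 h without overlap between groups, as did 15.9% of all genes. In both, the lowest library was replicate 1 of 0 h. The other listed trimming enzyme, LNPEP, overlapped between groups (36.4, 51.2 and 46.9 CPM at 0 h, and 57.5, 58.8 and 46.8 at 24 h). WWP2, a ubiquitin ligase of the complex that removes class I from the surface, was at 113, 162 and 158 CPM at 0 h and at 202, 206 and 215 at 24 h (0.54 with the block, adjusted p 0.00347; 0.0759 without). Its partners SUSD6 and TMEM127 were not called. STAT2, a factor of interferon signalling, was the third, at 0.33 (adjusted p 0.0136; 0.155 without). Its call was lost without replicate 2 of 0 h and without replicate 2 or 3 of 24 h (adjusted p 0.0524 to 0.0826 with the block). Without the block and without replicate 1 of 0 h and 8 h, WWP2 was at 0.38 (edgeR adjusted p 0.0231), ERAP2 at 0.30 (0.123) and STAT2 at 0.23 (0.312).

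None of the other listed regulators of class I transcription was called with or without the block. NLRC5 was at 9.81, 7.82 and 10.3 CPM at 0 h and at 8.71, 8.80 and 9.99 at 24 h, a log2 fold change of -0.02 (edgeR adjusted p 0.950). IRF1, which binds such response elements, had a log2 fold change of 0.01 (adjusted p 0.962; genes on the opposite strand overlap 22% of its exons).

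Genes best known as interferon-stimulated, which carry like response elements, are set beside the class I genes. Of 19 tested, 16 were above 0 at 24 h against 0 h with a median log2 fold change of 0.56, 3 were called without the block, against 4.25% of all genes, and 10 with it, against 24.1% (12.6% higher); all were higher. GBP2 rose from 10.2, 21.3 and 19.8 CPM to 38.3, 52.4 and 52.4 (log2 fold change 1.48, edgeR adjusted p 0.0267), GBP1 by 1.02 (0.0268) and IFIH1 by 0.79 (0.0345). In fits without the block none of the 3 was called without replicate 2 (adjusted p 0.123 to 0.136) or without replicate 3 (0.135 to 0.167) of 24 h. Each of those fits called 0 of all genes. IFIH1 also missed the threshold without any 1 untreated library (adjusted p 0.0527 to 0.0728) and without replicate 3 of 8 h (0.0554), and with only the compared groups in the fit IFIH1 and GBP1 both had an adjusted p of 0.0506. Without the block and without replicate 1 of 0 h and 8 h, GBP2 was at 1.215 (edgeR adjusted p 0.0026), GBP1 at 0.827 (0.011) and IFIH1 at 0.736 (0.0193). With the block all 3 were called in each of the 9 fits that left out a library, IFIH1 with an adjusted p of at most 0.0176. In the class II list all 6 genes were above 0 at 24 h with a median of 0.26; 0 were called without the block (2 had an unadjusted p under 0.05, against 26.4% of all genes) and 3 with it, against 24.1% (12.6% higher), all higher.

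**Figure D5:**
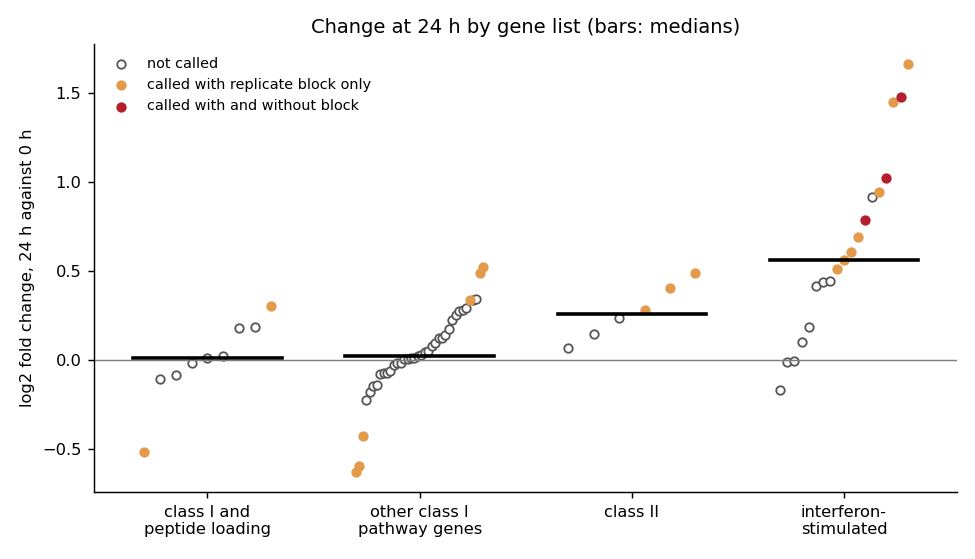
Log2 fold change at 24 h against 0 h of each tested gene by list, with medians as black bars and the calls of edgeR with and without the replicate block in colour. The class I and peptide loading genes centre on 0.01 and the interferon-stimulated genes on 0.56.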

How the data were processed

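Raw counts per Ensembl gene were deposited by the authors as whole numbers for 9 libraries; bcl2fastq 2.20.0.422, STAR 2.7.4a and GRCh38 are named in the submitters' processing notes, and the counting program, annotation and strand setting are not given in the sources used here. Columns were matched to samples by time and replicate number. The members, gene lists (38 pathway, 23 interferon, 6 class II genes and cell markers) and tests were chosen with earlier results of these data known. All members were named. From the pathway list, genes past the threshold at 24 h against 0 h with or without the block were named. Some regulators and the immunoproteasome subunits were named in any case, and LNPEP, SUSD6 and TMEM127 beside genes of like role. From the interferon list only the 3 genes with the smallest p were named, and from the class II list counts only were given.

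Symbols were looked up by gene identifier, coordinates and lengths from GENCODE 29, and promoters from RefSeq on GRCh38.p14. Genes were filtered with filterByExpr, scaled with TMM and fitted with edgeR 4.0.16 in R 4.3.3 over all 9 libraries with 1 mean per group (glmQLFit, glmQLFTest, two-sided, Benjamini-Hochberg over 15273 genes, threshold 0.05). Intervals are 95% intervals from the quasi-likelihood standard error. DESeq2 1.42.0, its size factors, no filter, fits on the compared groups and fits without each library were alternatives. On simulated counts for 15099 genes, 99% of 2-fold changes at 24 h against 0 h were recovered. The simulation gave every gene the same spread, drew the libraries independently and changed only genes of at least 5 CPM. It held no library that lay apart and no replicate structure, so it does not give the recovery in these data. The labels do not say whether libraries came from separate cultures, so p-values measure the spread between libraries, which may be technical. The libraries differed by more than sampling noise (chi-square per degree of freedom of 8.51 or more). Same-numbered libraries deviated together: across genes r was 0.476, 0.432 and 0.414 between 0 h and 8 h and 0.367, 0.164 and 0.251 between 0 h and 24 h, so the numbers, which come from the titles, were taken to pair them. However, replicate 3 of 0 h with replicate 2 of 24 h reached 0.27, above the 0.164 of the same-numbered pair. Deviations were taken from the mean of each group of 3, which lowers r between unlike numbers. The pairing of replicate 2 of 24 h is thus uncertain, and the calls with the block rest on the pairing. Between 8 h and 24 h, r was 0.423, 0.0367 and 0.404, which does not meet the rule.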

Additional observations from a re-analysis of the deposited data

Results flagged for a closer look

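The change against 0 h differed between 24 h and 8 h for 4 of the genes the report names (edgeR, 24 h against 8 h, p adjusted over all tested genes). The log2 fold change between those times was 1.55 for GBP2 (adjusted p 0.0224), 1.15 for GBP1 (0.0204), 0.82 for IFIH1 (0.0310) and 1.49 for the endothelial marker VWF (0.0332; 1.58 CPM or less in every library), and all 3 libraries of 24 h were higher than those of 8 h in each gene. None of the 9 class I and peptide loading genes met this criterion. Of all tested genes, 4.56% met it, and 18.2% had 24 h libraries that were all higher than those of 8 h. GBP2, GBP1 and IFIH1 had been chosen for their small p at 24 h against 0 h, and both comparisons share the 24 h libraries.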

How the results depend on the processing

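Recovery was simulated for 2-fold and larger changes only, so with 3 libraries a group nothing is known here of how often changes as small as those of TAPBP and ERAP1 would be called. No member was called without the replicate block in any setting, and under DESeq2, DESeq2's size factors, no filter and only the compared groups all 27 member fold changes kept their direction and their side of the threshold.

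With the replicate block, 2 members, 6 pathway genes and 3687 genes in all were called at 24 h against 0 h; between 8 h and 24 h, where the numbers do not pair all libraries, the block called 2 members (TAP2 at -0.41, adjusted p 0.0104, and TAPBP at 0.24, 0.0421) and 3130 genes. When 1 library was left out of that fit, TAP2 was called in 7 of 9 fits (not without replicate 2 or 3 of 8 h, adjusted p up to 0.0809) and TAPBP in 1, the one without untreated replicate 1 (0.00629; otherwise up to 0.184). With all 9 libraries in the fit, the block changed no further call of a member. Between 8 h and 24 h, ERAP1 was called with the block only when untreated replicate 1 was left out (edgeR adjusted p 0.0241). At 24 h against 0 h, 124 genes were called from the compared groups alone and 1656 by DESeq2, and between 8 h and 24 h 1787 and 1486. Among pathway genes DESeq2 called 4 (PSMB5, PSMB6, PSMB7 and WWP2) and the fit with no filter 1 (PSMB6).

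Chosen after seeing the data, the fit without replicate 1 of 0 h and 8 h called 1062 genes between 8 h and 24 h and 1 pathway gene at 24 h (WWP2). At 8 h it turned HLA-B to 0.027, HLA-C to 0.035, HLA-E to 0.017, HLA-F to 0.055, B2M to 0.002 and ERAP1 to -0.003 on the log2 scale, and at 24 h against 0 h B2M to 0.036, PSMB10 to 0.168 and NLRC5 to 0.02. IRF1 was at 0 with DESeq2's size factors. The cause was not tested, and none of these was called.

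Leaving out 1 library at a time, with or without the block, members called ranged from 0 to 2 at 24 h against 0 h and from 0 to 3 between 8 h and 24 h, pathway genes from 0 to 10, and all genes from 0 to 3816 and from 0 to 5432. Without the block, the 0 came from leaving out replicate 2 or 3 of 24 h and, between 8 h and 24 h, also replicate 1 of 8 h. Log2 fold changes that changed sign ranged at 8 h from -0.113 to 0.021 for HLA-B, -0.138 to 0.032 for HLA-C, -0.092 to 0.034 for HLA-E, -0.197 to 0.104 for HLA-F, -0.153 to 0.007 for B2M, -0.057 to 0.069 for TAP1, -0.24 to 0.104 for TAP2, -0.088 to 0.011 for TAPBP and -0.051 to 0.208 for ERAP1. At 24 h against 0 h they ranged from -0.069 to 0.073 for HLA-B, -0.071 to 0.1 for HLA-C, -0.114 to 0.051 for B2M, -0.016 to 0.109 for PSMB8, -0.261 to 0.151 for PSMB10, -0.135 to 0.06 for NLRC5 and -0.037 to 0.091 for IRF1. Between 8 h and 24 h they ranged from -0.028 to 0.114 for HLA-B, -0.004 to 0.132 for HLA-C and -0.043 to 0.116 for B2M. None of these 19 ranges held a call.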

Other observations

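As a description over the 9 libraries, the mean of the members' centred log2 CPM was matched against 10842 other genes of at least 5 CPM. The closest profiles were those of USF2 (Pearson's r 0.97), CASP6 (0.96), RPS27L (0.96), NMB (0.96), NUCB2 (0.95) and BTG1 (0.93). The members themselves did not share 1 profile: r with their own mean was 0.84 for HLA-C, 0.79 for B2M and 0.67 for HLA-B, but 0.02 for TAP2 and -0.22 for ERAP1. The libraries share their depth and the grouping by time and replicate, and replicate 1 at 0 h and 8 h lies apart, so the values describe these libraries only.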
